A study of Mus musculus with 6 samples.

Results

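The red cell genes described here are the adult alpha-globin genes Hba-a1 and Hba-a2, the adult beta-globin genes Hbb-bs and Hbb-bt, the erythroid haem synthesis gene Alas2, the anion exchanger gene Slc4a1 and the alpha-globin chaperone gene Ahsp. They were chosen by gene symbol. Of the 7 genes, 6 were analysed out of 26123 genes in the deposited table, and Ahsp was not analysed here. Liver RNA came from ICR mice, an outbred stock, with 3 animals labelled control and 3 labelled crizotinib, a drug that blocks the receptor kinases MET, ALK and ROS1. Per the series' design text the dose was 300 mg/kg, with 7 days of adaptation before it and collection 1 week after it. That text does not say plainly which animals received the drug or saline, and groups here were taken from the treatment label of each sample. No label states the age or sex of the mice or whether the livers were flushed of blood.

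Adult haemoglobin is a tetramer of alpha and beta chains, each carrying haem. ALAS2 makes the first committed product of haem synthesis in erythroid cells, and SLC4A1, also called band 3, exchanges chloride for bicarbonate across the red cell membrane. Adult mice make red cells in bone marrow and spleen. Reticulocytes, the youngest cells in blood, have lost their nucleus but still hold globin and ALAS2 messenger RNA, so a liver that contains blood yields these transcripts.

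Alpha-globin lies on chromosome 11 (Hba-a1, ENSMUSG00000069919, 32283511 to 32284465; Hba-a2, ENSMUSG00000069917, 32296489 to 32297298, both on the plus strand) and beta-globin on chromosome 7 (Hbb-bs, ENSMUSG00000052305, 103826534 to 103827928; Hbb-bt, ENSMUSG00000073940, 103812524 to 103813996, both on the minus strand). Alas2 is on chromosome X (ENSMUSG00000025270, 150547375 to 150570638) and Slc4a1 on chromosome 11 (ENSMUSG00000006574, 102348824 to 102365280). Positions are those of the deposited table, which follow mouse assembly GRCm38. The coding sequences of each pair of adult globin genes are nearly the same in the reference, which limits how far reads can be given to a single copy. Hba-a1 and Hba-a2 share 428 of 429 coding bases and Hbb-bs and Hbb-bt share 443 of 444. The stretches that hold the differing base are shown to make this visible, with that base in capitals. It is C381T from Hba-a1 to Hba-a2 and C417T from Hbb-bs to Hbb-bt, counted from 1 at the A of the start codon. The stretches lie in the last coding exon, at chr11:32284313-32284372 and chr11:32297130-32297189 on the plus strand and at chr7:103826665-103826724 and chr7:103812656-103812715 on the minus strand (GRCm38, GENCODE release M21).
Hba-a1: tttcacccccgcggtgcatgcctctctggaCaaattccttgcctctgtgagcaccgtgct
Hba-a2: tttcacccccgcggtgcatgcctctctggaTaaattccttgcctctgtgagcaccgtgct
Hbb-bs: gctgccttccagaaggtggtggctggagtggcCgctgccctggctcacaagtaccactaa
Hbb-bt: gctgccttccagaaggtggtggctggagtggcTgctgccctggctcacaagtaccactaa
Of all 100-base stretches of the full Hba-a2 transcript, 74.5% also occur in Hba-a1, and of those of Hbb-bs 62.6% also occur in Hbb-bt. The differences that remain are largely outside the coding part. How reads that fit both copies were counted is not stated in the labels or headers, and the reference strain is C57BL/6J while ICR mice are outbred, so each single-copy value is uncertain.

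The promoters are shown because the globin genes and Alas2 had their lowest levels in the same pair of livers, crizotinib replicates 1 and 2. RefSeq windows from 250 bases before to 50 bases after the transcript start (GRCm38.p6) were matched for 5 of the 6 genes, all but Slc4a1. They were searched on both strands for GATA sites (AGATAA and AGATAG, each also with T as its first letter), which GATA1 binds, for the CACCC box (CCNCNCCC), which KLF1 binds in beta-globin, for CCAAT and for TATAAA. The lines below end 44 bases before the start and begin 190 bases before it for Hba-a2 and 110 bases before it for the others, at chr11:32296302-32296448 (plus), chr7:103827972-103828038 (minus), chr7:103813967-103814033 (minus) and chrX:150547307-150547373 (plus). Capitals mark matches to the GATA, CACCC and CCAAT motifs.
Hba-a2: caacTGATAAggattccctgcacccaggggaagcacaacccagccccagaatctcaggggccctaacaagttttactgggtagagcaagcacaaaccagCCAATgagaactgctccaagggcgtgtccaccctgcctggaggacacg
Hbb-bs: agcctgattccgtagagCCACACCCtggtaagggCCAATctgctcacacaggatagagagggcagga
Hbb-bt: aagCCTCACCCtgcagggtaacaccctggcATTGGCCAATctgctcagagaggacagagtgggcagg
Alas2: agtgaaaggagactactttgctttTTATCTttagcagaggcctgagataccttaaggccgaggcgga
The windows of Hba-a1 and Hba-a2 were identical over 297 aligned bases. Hba-a1, Hba-a2 and Hbb-bs had a GATA match, that of Hbb-bs 210 bases before the start and so outside the stretch shown, and a CCAAT match. Hbb-bs and Hbb-bt both had a CACCC match beside CCAAT, and Alas2 had a GATA match and 4 CACCC matches, some overlapping each other, on the opposite strand and nearer to the start than the stretch shown. These motifs are common. Of 32851 promoter windows 29.8% held a GATA site, 49.5% a CACCC box, 37.4% CCAAT and 13.6% TATAAA, and 3.83% held the first 3 together, as Hbb-bs did. A match is a description of the letters only.

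The 6 libraries held between 51123361 and 67947970 counts, and levels are CPM, counts scaled to library size with TMM normalization, unless FPKM, which is also divided by gene length, is named. Control replicate 1 and crizotinib replicate 3 stood apart from their groups. The share of counts from genes of the mitochondrial genome was 44.5% in control replicate 1, 7.47% and 17.6% in the other controls, 5.67% and 5.53% in crizotinib replicates 1 and 2, and 14.4% in crizotinib replicate 3. Albumin (Alb), a hepatocyte transcript, was abundant in every library, at 49749 ± 5489 CPM in controls and 17776 ± 4763 CPM in crizotinib livers (SD, n = 3 each).

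Globin transcripts and Alas2 were lower in the crizotinib livers than in the control livers, 3- to 9-fold by group means, and the spread within each group was of the same order. Crizotinib replicates 1 and 2 had the lowest levels of all 4 globin genes and of Alas2, and crizotinib replicate 3 lay between them and the controls. The mean of control replicates 2 and 3 was 1.18 times crizotinib replicate 3 for Hbb-bs, 1.31 for Hbb-bt, 1.32 for Hba-a1, 1.99 for Hba-a2 and 2.13 for Alas2. Control replicate 1 had the highest CPM of all 5, whereas by FPKM control replicate 2 was highest for Hbb-bs and Hbb-bt. Slc4a1 had at most 51 counts in any library. With all 6 libraries, edgeR's test over all genes called none of the 6, and DESeq2 called Hba-a1, Hba-a2 and Alas2 lower.

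**Figure D1:**
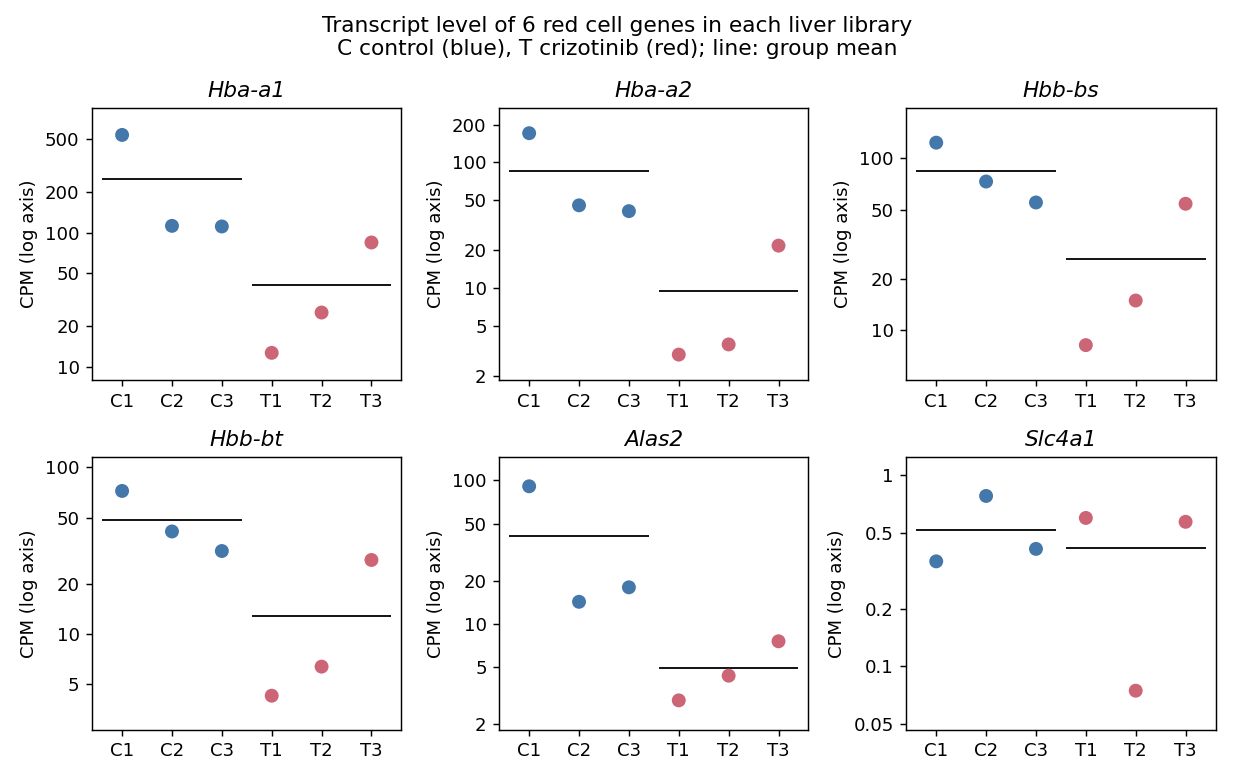
CPM of each gene (log axis) in control replicates 1 to 3 (C, blue) and crizotinib replicates 1 to 3 (T, red), with lines at the group means. The globin genes and Alas2 are highest in control replicate 1 and lowest in crizotinib replicates 1 and 2, with Hbb-bs at 54.5 CPM in crizotinib replicate 3 next to 55.5 CPM in control replicate 3.

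Hba-a1, which encodes an alpha chain, had 535, 112 and 111 CPM in control replicates 1, 2 and 3 and 12.7, 25.4 and 84.5 CPM in crizotinib replicates 1, 2 and 3. All 3 crizotinib livers were below all 3 controls, and crizotinib replicate 3 was 4.43 times the mean of the other crizotinib livers. The group means were 253 ± 245 and 40.9 ± 38.3 CPM (SD, n = 3 each), and the fitted log2 change was -2.63 ± 0.89 (SE; edgeR adjusted p = 0.225). Hba-a2, the other alpha-chain gene, had 171, 45.6 and 40.96 CPM in controls and 2.95, 3.56 and 21.8 CPM in crizotinib livers. The groups did not overlap, and the lowest levels were again in crizotinib replicates 1 and 2. Its log2 fold change was -3.19 ± 0.93 (SE; edgeR adjusted p = 0.185), the most negative of the 6 genes.

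Hbb-bs, which encodes the beta chain, had 124, 73.5 and 55.5 CPM in control replicates 1, 2 and 3 and 8.22, 14.9 and 54.5 CPM in crizotinib replicates 1, 2 and 3. Crizotinib replicate 3 and control replicate 3 were almost level. The log2 fold change was -1.70 ± 0.68 (SE; edgeR adjusted p = 0.298). Hbb-bt, whose coding sequence differs by 1 base, had 72.2, 41.2 and 31.5 CPM in controls and 4.25, 6.35 and 27.8 CPM in crizotinib livers, and its fitted log2 change was -1.92 ± 0.71 (SE; edgeR adjusted p = 0.261). Whether these beta-globin groups overlapped depended on the scale. On FPKM as deposited, the lowest control and the highest crizotinib liver were at 64.6 and 78.1 for Hbb-bs and at 40.03 and 43.4 for Hbb-bt, so the groups overlapped, as they did on counts divided by the unadjusted library total.

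Alas2, the erythroid 5-aminolevulinate synthase, had 90.8, 14.3 and 17.97 CPM in control replicates 1, 2 and 3. It had 2.93, 4.36 and 7.57 CPM in crizotinib replicates 1, 2 and 3. The groups did not overlap on any of 5 scales, and control replicate 1 was 5.64 times the mean of the other controls. The log2 fold change was -3.05 ± 0.77 (SE; edgeR adjusted p = 0.148), the smallest p of the 6 genes. Alas2 overlaps Apex2, a DNA repair nuclease gene on the opposite strand, and no label or header states whether reads were counted by strand. Apex2 had 7.35 ± 3.89 CPM in controls and 5.24 ± 0.893 CPM in crizotinib livers (SD, n = 3 each), with its highest level, 11.8 CPM, in control replicate 1 as well.

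Slc4a1, the red cell anion exchanger, had few counts. Its counts were 16, 51 and 25 in control replicates 1, 2 and 3 and 31, 4 and 36 in crizotinib replicates 1, 2 and 3. That is 0.354, 0.780 and 0.412 CPM and 0.598, 0.0745 and 0.571 CPM, so the groups overlapped. The log2 fold change was -0.32 ± 0.80 (SE; edgeR adjusted p = 0.875). The difference was smaller than the spread between replicates.

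All 6 genes passed the filter on low counts and were tested among 16492 genes. By edgeR's quasi-likelihood test 0 of the 6 were called, against 0.34% of all tested genes called in either direction, 0.249% lower and 0.091% higher. At an unadjusted p under 0.05, 5 of the 6 were lower, against 7.25% of all tested genes lower and 8.06% higher. The same 5 had groups that did not overlap with crizotinib lower on CPM, against 10.3% of all tested genes on that scale. On FPKM or on unadjusted totals 3 of the 6 did, and the share over all tested genes was not worked out for those scales. The 6 genes had a median log2 fold change of -2.27, beside -2.66e-05 over all tested genes; they were chosen with earlier results of these data known, so no test of the list is given. DESeq2 called Hba-a1, Hba-a2 and Alas2 lower on all 6 libraries (adjusted p = 0.0140, 0.00234 and 0.000694), where it called 3.68% of tested genes lower and 3.18% higher.

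Which libraries were used moved these values. Without crizotinib replicate 3, edgeR called all 4 globin genes lower, with log2 fold changes between -2.88 and -4.75 (adjusted p between 0.0123 and 0.0469, against 4.72% of all tested genes called lower). Alas2 then had -3.52 (edgeR adjusted p = 0.0586). Without control replicate 1, Hba-a1 had -1.45, Hba-a2 -2.19 and Alas2 -1.71, and none was called. With both of these libraries removed, a setting added after the data were seen, 5 of the 6 genes were called lower, against 5.52% of all tested genes called lower and 4.77% higher.

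**Figure D2:**
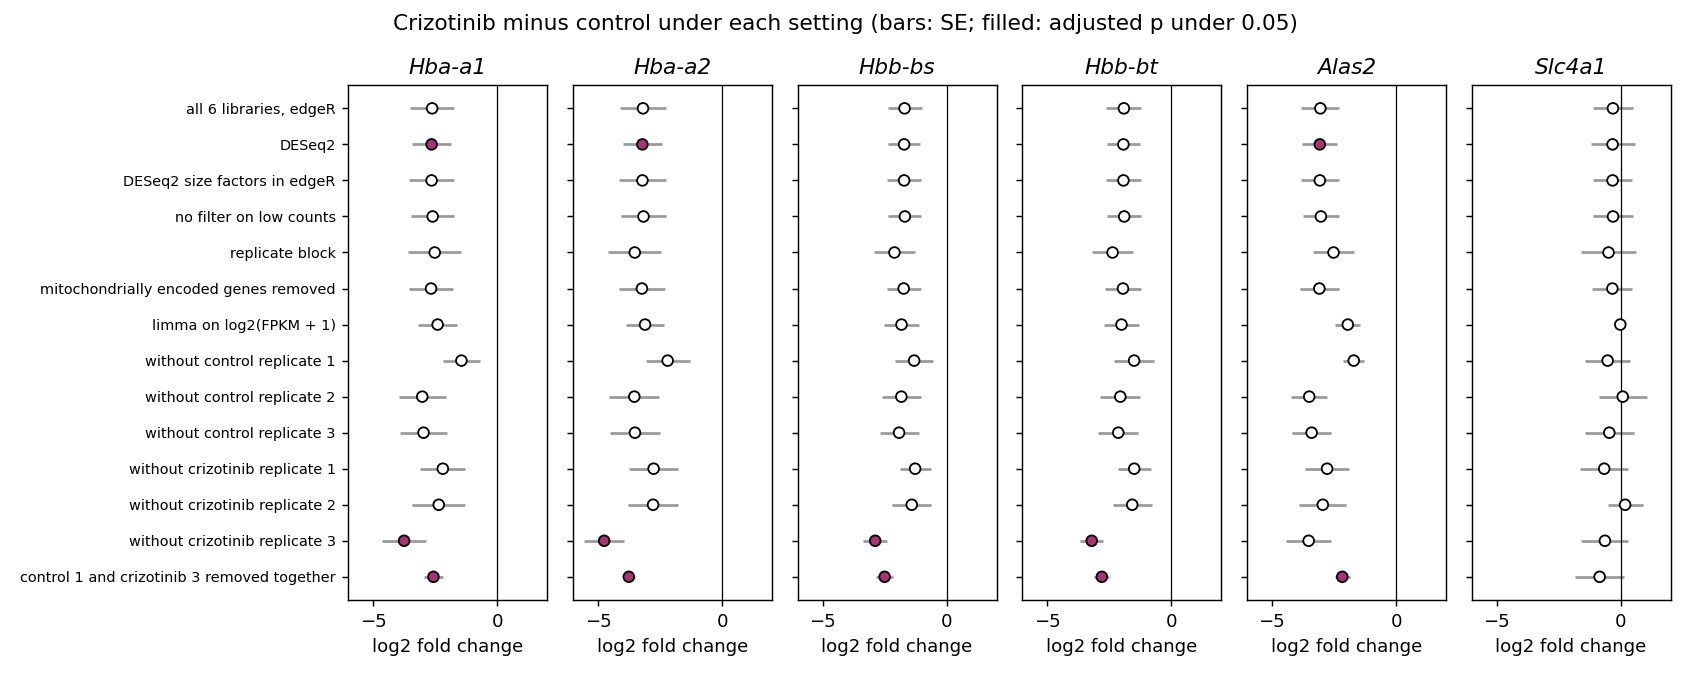
Log2 fold change, crizotinib minus control, with its SE for each gene (panels) under each setting (lines), filled where the adjusted p is under 0.05. The globin genes and Alas2 stay below 0 in all 14 settings plotted and Slc4a1 lies around 0; filled points appear with DESeq2, without crizotinib replicate 3, and with that library and control replicate 1 both removed.

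Together the 4 globin genes took a very small part of each liver library. Their share of all counts was 0.0599%, 0.0344% and 0.0238% in control replicates 1, 2 and 3 and 0.00285%, 0.00490% and 0.0229% in crizotinib replicates 1, 2 and 3. The share of crizotinib replicate 3 had a 95% exact binomial interval of 0.0225% to 0.0233%, just under that of control replicate 3, 0.0234% to 0.0241%; such intervals cover counting error only. The group means were 0.0394 ± 0.0186% and 0.0102 ± 0.0110% (SD, n = 3 each), 3.86-fold lower with crizotinib. This depended on the scale. As a share of summed FPKM, crizotinib replicate 3 was above control replicate 3, at 0.0560% and 0.0510%, and the group means differed 3.06-fold. With mitochondrially encoded genes removed from the total count, they differed 4.98-fold. Bulk RNA cannot tell fewer red cells in the tissue from less globin RNA per cell.

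The order of the globin genes by level per length differed between the groups. By FPKM, Hba-a1 was the highest of the 4 in all 6 livers, with 225 ± 148 in controls and 52.3 ± 54.2 with crizotinib (SD, n = 3 each). Hba-a2 was in place 2 in control replicate 1 and in place 3 in the other controls, and in place 4 in all 3 crizotinib livers. Its FPKM was 95.3 ± 51.5 in controls, beside 89.96 ± 22.9 for Hbb-bs and 56.1 ± 14.2 for Hbb-bt. Within each control library Hbb-bt was in place 4, below both, while the order of Hba-a2 and Hbb-bs changed between controls. Alas2 followed with 12.01 ± 9.17 FPKM and Slc4a1 with 0.0994 ± 0.0726 FPKM.

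Ratios between genes of a library do not depend on library scaling, and 4 were compared. Hba-a2 had 0.319, 0.405 and 0.368 counts per Hba-a1 count in control replicates 1, 2 and 3 and 0.232, 0.140 and 0.257 in crizotinib replicates 1, 2 and 3. The groups did not overlap (two-sided exact permutation test p = 0.1, adjusted p = 0.133 over the 4 ratios). Hbb-bt had 0.571 ± 0.0121 counts per Hbb-bs count in controls and 0.484 ± 0.0508 with crizotinib (SD, n = 3 each), again without overlap and with the same p. In both pairs the gene copy with fewer counts was the lower one relative to its partner. Because reads of each pair can be assigned to the wrong copy, a ratio can also follow how shared reads were divided, and this was not tested.

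Beta-globin counts per alpha-globin count were 0.277, 0.726 and 0.571 in controls and 0.796, 0.735 and 0.775 in crizotinib livers. Control replicate 1 stood lowest, and without it the log2 difference was 0.25 in place of 0.66 (two-sided exact permutation test over all 6 livers p = 0.1, adjusted p = 0.133). Alas2 had 0.0760 ± 0.0242 counts per globin count in controls and 0.0770 ± 0.0332 with crizotinib (SD, n = 3 each), and the groups overlapped (p = 1.0 by the same exact permutation test). For 3 against 3 the smallest p this test can give is 0.1, so none of the 4 could pass 0.05.

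**Figure D3:**
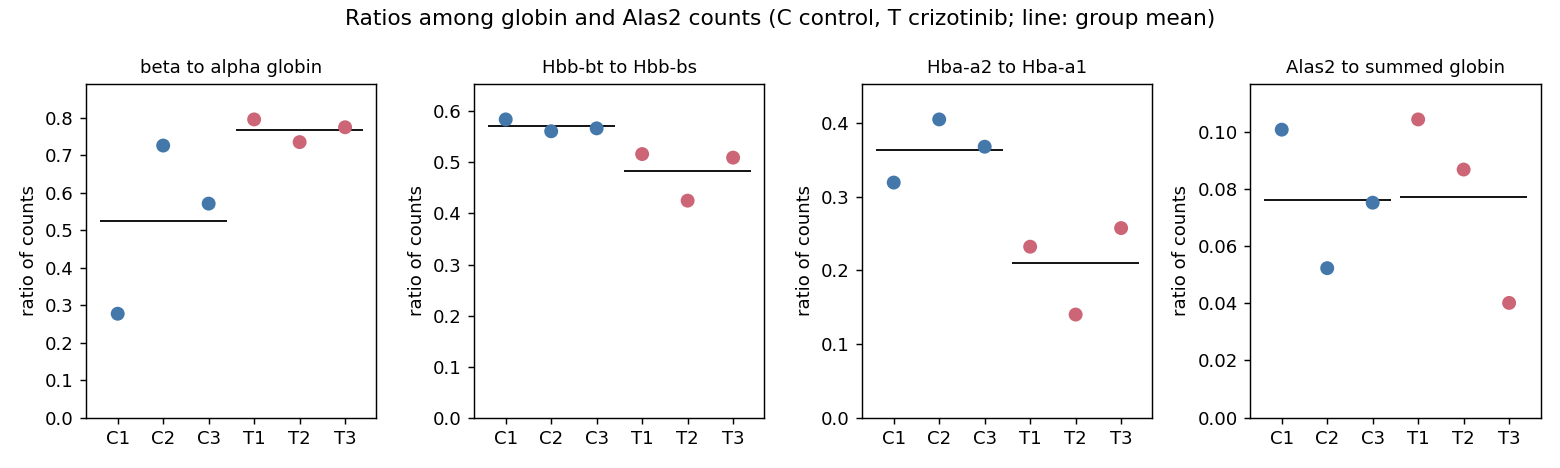
Ratio of counts in each library for 4 pairs of genes or gene sums (C control, T crizotinib; lines are group means). The Hba-a2 to Hba-a1 ratio is 0.319 to 0.405 in controls and 0.140 to 0.257 with crizotinib, and the beta to alpha ratio of control replicate 1 lies below all others at 0.277.

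Across the 6 livers the globin genes followed one another closely. Pearson's r of log2(CPM + 0.5), given as a description over 6 libraries that include both groups, was between 0.967 and 0.997 for every pair of globin genes, 0.88 to 0.97 for Alas2 with each of them, and 0.11 to 0.29 for Slc4a1 with each of them. Between the 2 alpha-globin copies, or the 2 beta-globin copies, r can also follow how shared reads were counted, which was not tested. Between an alpha-globin and a beta-globin gene r was 0.967 to 0.983. The 10 genes most like the mean globin pattern among 11789 compared were Rab23, Rhbdd3, Sfxn5, Lrp3, Gsap, Aagab, Cnot8, Hectd3, Tada3 and Prickle1, with r of 0.988 to 0.999. None of them is a red cell gene of the lists used here, and 569 genes had r above 0.9. The 10 most like Alas2 were Zbtb45, Cd300lg, Trim7, Zfp707, mt-Tc, mt-Ty, Dmac2, Mertk, mt-Ta and mt-Tn, with r of 0.983 to 0.996. Of these, 4 are transfer RNA genes of the mitochondrial genome. mt-Tc, for one, had 70.4, 11.4 and 17.9 CPM in controls and 2.76, 2.70 and 7.96 CPM in crizotinib livers. The part that the mitochondrial share of a library plays in the Alas2 values was not tested beyond removing those genes, after which Alas2 stood at -3.09 on the log2 scale (edgeR adjusted p = 0.147).

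The lists of other red cell genes had medians near 0. Beside the counts given for each list, DESeq2 called 3.68% of all tested genes lower and 3.18% higher. At an unadjusted p under 0.05, 7.25% were lower and 8.06% higher. Of the defining markers of erythroid precursors, the transcription factor Gata1 had at most 8 counts in any library, Hemgn at most 8 and the membrane gene Epb42 at most 6. Klf1, a transcription factor of globin genes, had 3.89 ± 0.504 and 4.22 ± 0.884 CPM (SD, n = 3 each).

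Of 19 listed red cell membrane genes 11 were tested, with 0 called by edgeR or DESeq2, 1 lower and 2 higher at an unadjusted p under 0.05, and a median log2 fold change of 0.04. Aqp1, the water channel, had 14.7 ± 4.39 and 6.85 ± 3.20 CPM, and Epb41, which encodes protein 4.1 and is also expressed outside red cells, had 74.8 ± 16.3 and 183 ± 95.5 CPM. Aqp1 was called lower and Epb41 higher without crizotinib replicate 3 (edgeR adjusted p = 0.0460 and 0.0263). Erythroid beta-spectrin (Sptb) had 1.78 ± 0.465 and 1.003 ± 0.165 CPM (edgeR adjusted p = 0.389).

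Among 18 tested genes of late red cell maturation, 0 were called by edgeR, 1 by DESeq2 and 1 had an unadjusted p under 0.05, with a median log2 fold change of -0.12. Car1, carbonic anhydrase 1, an abundant red cell protein, had 9.06, 4.83 and 9.33 CPM in control replicates 1, 2 and 3 and 0.0772, 0.112 and 3.19 CPM in crizotinib replicates 1, 2 and 3. Its levels in crizotinib replicates 1 and 2 rested on 4 and 6 counts. The log2 fold change was -2.77 ± 1.21 (SE; edgeR adjusted p = 0.331), and -6.34 without crizotinib replicate 3 (edgeR adjusted p = 0.00326). Car2, carbonic anhydrase 2, which other liver cells also express, had 9.97, 12.8 and 15.3 CPM in controls and 2.28, 4.08 and 18.5 CPM with crizotinib, with crizotinib replicate 3 the highest of all. Tspan33, a tetraspanin, had 8.85 ± 1.31 and 3.97 ± 0.753 CPM without overlap (edgeR adjusted p = 0.147; DESeq2 adjusted p = 0.0163). Bpgm, the bisphosphoglycerate mutase of red cells, had 6.37 ± 1.65 and 9.69 ± 4.28 CPM (edgeR adjusted p = 0.491).

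Regulators of red cell formation were split. Of 11 tested, 0 were called by edgeR, 1 lower and 1 higher by DESeq2, 2 were lower and 2 higher at an unadjusted p under 0.05, and the median log2 fold change was -0.12. Epor, the erythropoietin receptor, had 2.33, 0.550 and 1.40 CPM in controls and 0.482, 0.205 and 0.190 CPM with crizotinib (log2 fold change -2.28 ± 0.70 SE, edgeR adjusted p = 0.199; DESeq2 adjusted p = 0.0341). Nfe2, a factor of erythroid cells and megakaryocytes, had 0.6004 ± 0.204 and 2.51 ± 1.14 CPM (edgeR adjusted p = 0.158). Lmo2 had 5.31 ± 0.671 and 2.76 ± 0.754 CPM, and Zfpm1, the GATA1 cofactor, 29.2 ± 4.54 and 48.8 ± 10.9 CPM (edgeR adjusted p = 0.235 and 0.270).

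Enzymes that share the haem pathway with Alas2 had a median near 0. Of 15 tested genes of haem synthesis and iron uptake, 0 were called by edgeR, 1 by DESeq2, 1 was lower and 2 higher at an unadjusted p under 0.05, and the median log2 fold change was -0.07. Alas1, the form of the enzyme used by hepatocytes, differed by 0.0021 on the log2 scale (edgeR adjusted p = 0.999). Alad, which acts next in the pathway, had 232, 72.0 and 113 CPM in controls and 23.6, 60.02 and 161 CPM with crizotinib. Tfrc, the transferrin receptor, had 19.5 ± 8.55 and 41.3 ± 8.05 CPM without overlap (edgeR adjusted p = 0.230). Slc11a2, the iron importer DMT1, had 18.4, 23.4 and 18.6 CPM in controls and 112, 141 and 22.6 CPM with crizotinib, and Abcb10, a mitochondrial transporter, 22.8 ± 0.386 and 15.04 ± 3.53 CPM (edgeR adjusted p = 0.166 and 0.317).

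Genes that clear haemoglobin and haem included some of the most abundant transcripts of crizotinib replicates 1 and 2. Of 12 tested, 0 were called by edgeR, 1 lower and 3 higher by DESeq2, and 3 were lower and 3 higher at an unadjusted p under 0.05; the median was 0.09. Haptoglobin (Hp), the plasma binder of free haemoglobin, had 3959, 6914 and 3186 CPM in controls and 35586, 40022 and 7683 CPM with crizotinib. Haemopexin (Hpx), the binder of free haem, had 2697, 6751 and 3449 CPM in controls and 55685, 49067 and 5756 CPM with crizotinib. Both are also acute-phase genes. Haem oxygenase 1 (Hmox1) had 15.9, 13.2 and 23.8 CPM in controls and 234, 84.1 and 12.9 CPM with crizotinib. All 3 were thus high in the 2 livers with the least globin and near the controls in crizotinib replicate 3 (edgeR adjusted p = 0.215, 0.212 and 0.215). The haptoglobin-haemoglobin receptor gene Cd163, a macrophage gene, had 8.64 ± 8.10 and 2.02 ± 0.476 CPM, and the iron exporter gene Slc40a1 had 129 ± 31.0 and 46.96 ± 15.7 CPM without overlap (edgeR adjusted p = 0.280 and 0.148).

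Signals that govern red cell production were tested for 8 genes, with 0 called by edgeR and 2 higher by DESeq2, 4 higher at an unadjusted p under 0.05 and a median of 0.78. Hepcidin (Hamp), the liver hormone that limits iron release, had 350, 72.0 and 163 CPM in controls and 1241, 964 and 675 CPM with crizotinib. The groups did not overlap (log2 fold change 2.30 ± 0.62 SE, edgeR adjusted p = 0.162; DESeq2 adjusted p = 0.00210). Epas1, a hypoxia-inducible factor that drives erythropoietin, had 26.1, 34.3 and 46.8 CPM in controls and 199, 118 and 47.9 CPM with crizotinib. Kitl, the stem cell factor gene, and Egln3, a prolyl hydroxylase, had log2 fold changes of 1.09 and 1.23 (edgeR adjusted p = 0.186 for Epas1, 0.208 for Kitl and 0.252 for Egln3). Erythropoietin itself (Epo) had 1 count in each of the 6 libraries. Of other globin-family genes, Cygb, cytoglobin of stellate cells, had 5.44 ± 0.939 and 2.03 ± 0.382 CPM without overlap (edgeR adjusted p = 0.129; DESeq2 adjusted p = 0.00448). Myoglobin (Mb) had 308 counts in control replicate 1 and at most 32 in any other library; of 13 listed genes of that family, 2 were tested, with 0 called by edgeR and 1, Cygb, by DESeq2.

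**Figure D4:**
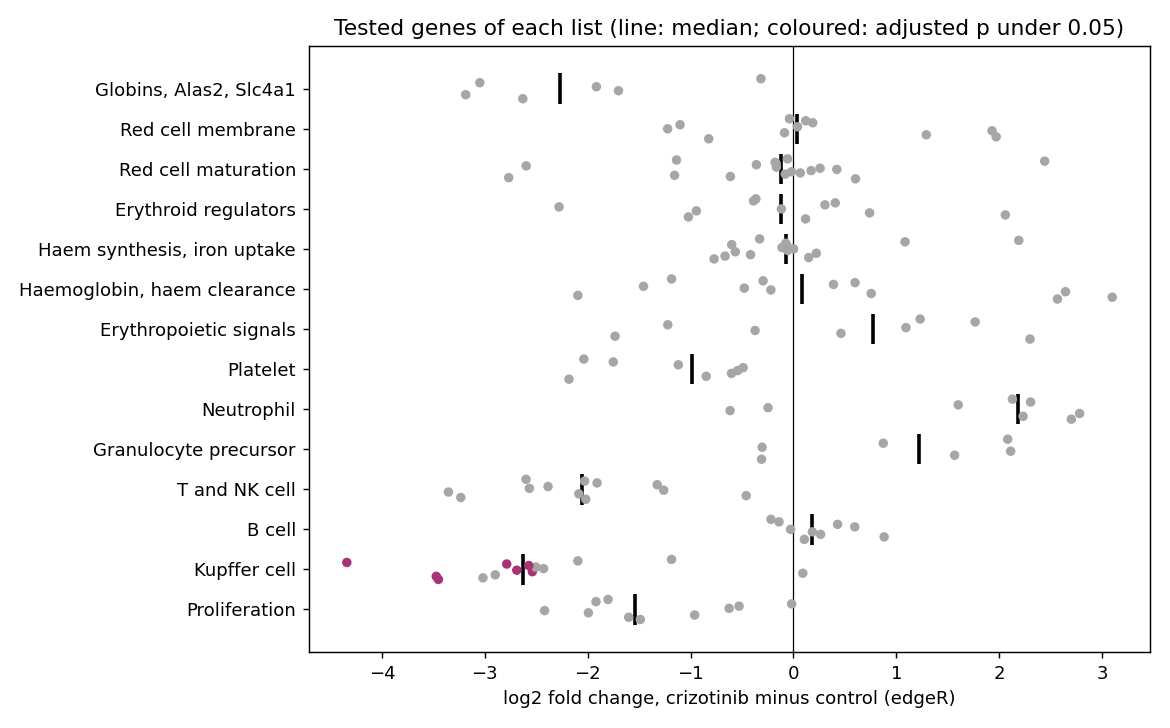
Log2 fold change, crizotinib minus control, of every tested gene of each list shown, with the list's median as a line and genes with an edgeR adjusted p under 0.05 coloured. The row of the globin genes, Alas2 and Slc4a1 has a median of -2.27 and the red cell membrane row 0.04. The Kupffer cell row, which holds the 7 coloured points, has -2.63.

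Markers of other blood cells and of resident cells were measured in the same livers. Kupffer cells are the liver macrophages that engulf old red cells. Their markers summed to 395 to 528 CPM in controls and 44.99 to 75.7 CPM in crizotinib livers. Of 14 tested, 7 were called lower by edgeR, against 0.249% of all tested genes, and the median was -2.63. Clec4f, a Kupffer cell lectin, fell by 3.45 on the log2 scale (edgeR adjusted p = 0.0430). Of the 14, 13 had a fitted change below 0, and Marco had 0.09. Marco stood at 2.66, 10.2 and 9.72 CPM in controls and 16.5, 4.52 and 3.09 CPM in crizotinib livers. For the lists that follow, DESeq2 called 3.68% of all tested genes lower and 3.18% higher. At an unadjusted p under 0.05, 7.25% were lower and 8.06% higher. T and NK cell markers summed to 14.4 to 18.8 CPM and 3.52 to 4.90 CPM (0 of 12 called by edgeR, 6 by DESeq2, 8 lower at an unadjusted p under 0.05, median -2.06). Platelet markers, from other anucleate blood cells, summed to 10.8 to 19.1 CPM and 5.15 to 8.57 CPM (0 of 8 called by edgeR, 2 by DESeq2, 3 lower at an unadjusted p under 0.05, median -0.98). B cell markers summed to 19.98, 120 and 93.5 CPM in controls and 124, 69.2 and 43.6 CPM with crizotinib (0 of 9 called by edgeR or DESeq2 and 0 at an unadjusted p under 0.05, median 0.18). Hepatocyte markers summed to 76145 to 91223 CPM and 50456 to 60158 CPM (0 of 11 called by edgeR, 2 lower and 1 higher by DESeq2, 1 higher at an unadjusted p under 0.05, median -0.68). In crizotinib replicate 3 the summed globin level was 189 CPM, against 239 CPM in control replicate 3, while its Kupffer, T and NK cell and platelet sums were below every control. The part of these cells in the globin difference was not tested.

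**Figure D5:**
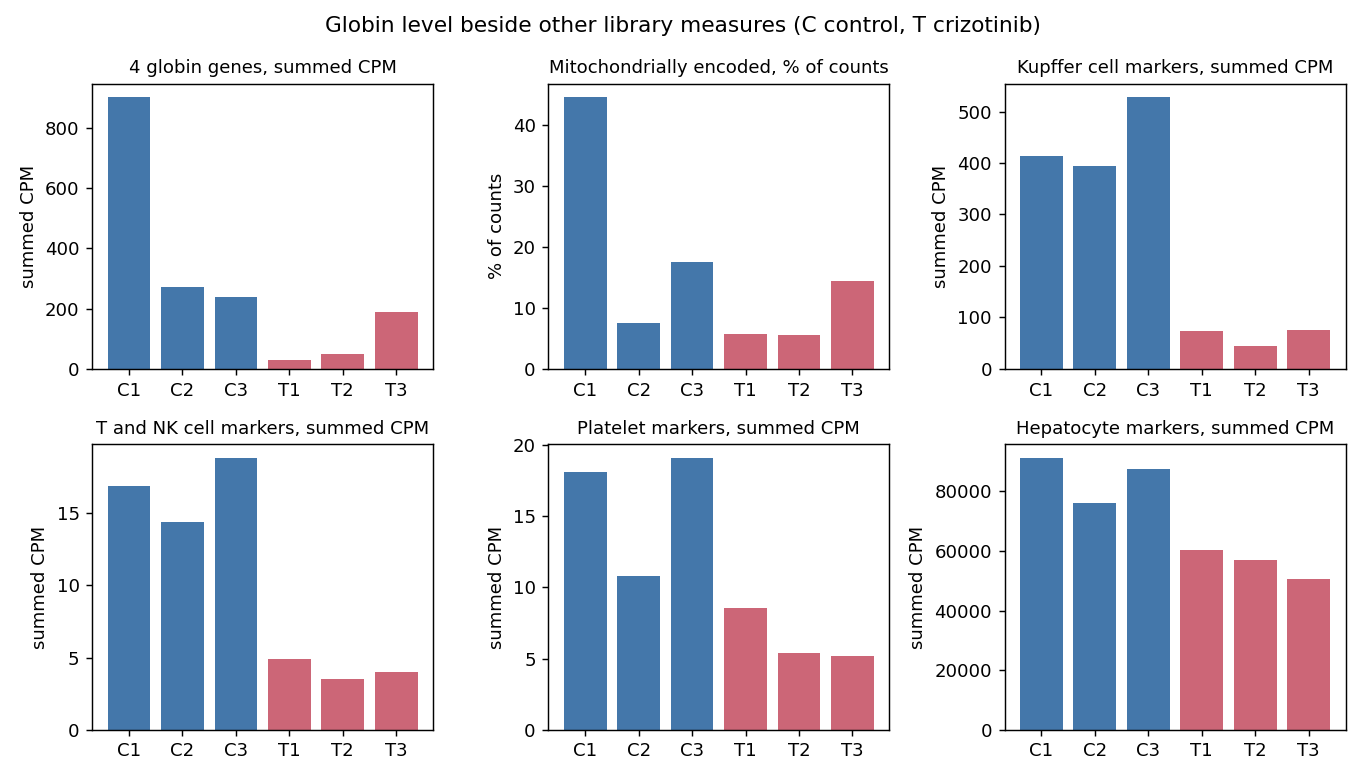
Summed CPM of the 4 globin genes, share of counts from mitochondrially encoded genes, and summed CPM of Kupffer, T and NK, platelet and hepatocyte markers in each library (C control, T crizotinib; bars start at 0). Globin is 902 CPM in control replicate 1, which also has the highest mitochondrial share at 44.5%, and crizotinib replicate 3 lies near control replicates 2 and 3 for globin and with the other crizotinib livers for the Kupffer, T and NK, platelet and hepatocyte sums.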

How the data were processed

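The deposited table held, per the file headers, a whole-number read count and an FPKM value for each gene in each of 6 liver libraries, 3 per group. Counts were deposited by the authors without normalization. The FPKM values deposited by the authors matched counts divided by GENCODE release M21 exon length, to within 10% around a common factor, for 99.5% of 8282 genes with over 200 counts in every library. RNA extraction used a Qiagen RNeasy kit and library preparation a SMARTer mRNA kit, per the labels' protocols. Aligner, counter and strand are not given in the sources used.

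Counts received TMM normalization (trimmed mean of M values), were filtered with filterByExpr (minimum count 10, minimum total 15), which left 16492 genes, and went into the two-sided quasi-likelihood test of edgeR 4.0.16 (R 4.3.3), with p-values adjusted over all genes by Benjamini-Hochberg and a threshold of 0.05. SE is the fold change over the root of F. Other settings were DESeq2 (1.42.0), DESeq2 size factors in edgeR, no low-count filter, a replicate block, no mitochondrially encoded genes, limma (3.58.1) on log2(FPKM + 1), and each library left out. The steps were tested on simulated counts, in which each gene had the spread typical of its level in these data. There edgeR recovered 2% of 2-fold, 48% of 4-fold, 86% of 8-fold and 100% of 16-fold changes. Of its 125 calls, 5.6% were false. Ratios raised counts below 3 to 3. Each group is 3 mice, per the series' design text. The genes, the lists and the rule for naming (up to 4 members of each list by p, plus 10 fixed genes) were chosen with earlier results of these data known, and further genes, among them Car2, Sptb, Bpgm, Alad, Alas1 and Mb, were named after their values were seen; some listed genes are not reported here.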

Additional observations from a re-analysis of the deposited data

How the results depend on the processing

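The globin genes and Alas2 kept a fitted change below 0 in every setting run. With DESeq2, Hba-a1, Hba-a2 and Alas2 passed the threshold at -2.65, -3.21 and -3.07 on the log2 scale. With control replicate 1 and crizotinib replicate 3 both removed, Hba-a1, Hba-a2, Hbb-bs, Hbb-bt and Alas2 passed it at -2.58, -3.76, -2.50, -2.80 and -2.17. Leaving out 1 library at a time gave -3.76 to -1.45 for Hba-a1, -4.75 to -2.19 for Hba-a2, -2.88 to -1.27 for Hbb-bs, -3.21 to -1.50 for Hbb-bt, -3.52 to -1.71 for Alas2 and -0.67 to 0.17 for Slc4a1, which changed sign without control replicate 2 or crizotinib replicate 2. The log2 ratio of the summed globin share ranged from -3.34 without crizotinib replicate 3 to -1.50, against -1.95. The log2 difference in the Alas2 to globin ratio ranged from -0.32 to 0.37.

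Genes called over the whole table numbered 56 with all libraries, 1103 with DESeq2, 1718 with the 2 libraries removed, and 0 to 1504 when each library was left out: edgeR called 0 without control replicate 1 or 3 (1985 and 1705 at an unadjusted p under 0.05) and 1504 without crizotinib replicate 3. Deviations of same-numbered libraries from their group means were weakly correlated (r = -0.149, 0.164 and -0.090 for numbers 1, 2 and 3). With 3 libraries per group, these values cannot show whether same-numbered libraries shared a batch or processing day. With the replicate block edgeR called 0 genes (2068 at an unadjusted p under 0.05), and none of the 6 red cell genes. Of all settings and results compared, 103 kept their direction and side of the threshold or moved by less than the replicate spread, 12 passed the threshold only under the other setting, 10 moved further and 2, both for Slc4a1, changed sign. Slc4a1, Gata1, Hemgn and Epb42 had under 60 counts in every library, which limits the precision of their values. The cause of the other differences between settings was not tested.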

Other observations

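Neutrophil genes summed to 6.27, 7.46 and 4.45 CPM in controls and to 33.9, 16.6 and 6.49 CPM in crizotinib replicates 1, 2 and 3, with a median log2 fold change of 2.18 over 8 tested genes (0 called by edgeR, 2 higher by DESeq2, 5 higher at an unadjusted p under 0.05). Of the 8, the receptor genes Csf3r and Cxcr2 had fitted changes below 0, at -0.62 and -0.25. Genes of marrow granulocyte precursors summed to 6.09, 16.7 and 4.20 CPM and to 27.8, 19.6 and 35.5 CPM, with a median of 1.22 over 6 tested genes (0 called by edgeR or DESeq2, 1 higher at an unadjusted p under 0.05). Prtn3 alone had 28.8 CPM in crizotinib replicate 3 and Chil3 14.3 CPM in crizotinib replicate 1. Of the 6, Mpo and Camp had fitted changes below 0, at -0.31 and -0.30. Genes of dividing cells had a median of -1.54 over 10 tested genes (0 called by edgeR, 4 lower by DESeq2, 6 lower at an unadjusted p under 0.05). Over all tested genes, DESeq2 called 3.68% lower and 3.18% higher, and 7.25% were lower and 8.06% higher at that unadjusted p. Birc5, an inhibitor of cell death that acts in mitosis, had 2.44 ± 0.928 and 0.453 ± 0.192 CPM (SD, n = 3 each; edgeR adjusted p = 0.117).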
